A study of Homo sapiens with 36 samples.

Results

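Senescence set up by activated RAS in human lung fibroblasts was read from 6 RNA libraries, 3 of senescent and 3 of proliferating IMR90 ER:RAS cells, all kept with vehicle for 36 h and without a caspase inhibitor. The libraries were picked by their labelled state, treatment and time, from 36 libraries in 12 groups of 3, and every gene was considered, so that 18696 genes with enough counts for a test stand here out of 57232 counted. IMR90 is a line of fetal lung fibroblasts, and ER:RAS is RAS joined to a hormone-binding domain of the oestrogen receptor, which stays idle until 4-hydroxytamoxifen (4OHT) is added. All cells carried the fusion, were at passage 14 and grew for 6 days in medium with 10% FBS that was changed on day 3. Senescent cells had 100 nM 4OHT in that medium and proliferating cells had none. Vehicle followed for 36 h. Libraries of the same 2 states with vehicle for 16 h, and with vehicle for 36 h and an overnight caspase inhibitor, are used beside them, with 3 libraries in each group. 4OHT was given only to senescent cells, so its own effect and that of active RAS cannot be told apart. The labels name no promoter of the fusion and do not say whether the line is 1 clone. Nor do they tell whether replicate libraries stem from different cultures. The p-values here thus reflect only how far libraries vary within groups, estimated over all 36, which can be technical.

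RAS passes growth signals through the kinases RAF, MEK and ERK to transcription factors of the ETS and AP-1 families. When RAS stays on in normal fibroblasts, the cells leave the cell cycle for good: CDK inhibitors keep the RB protein active, RB holds back E2F factors, and genes for DNA replication and mitosis fall silent. Such cells stay alive and secrete cytokines, chemokines, growth factors and proteases, the senescence-associated secretory phenotype, which NF-kB and C/EBP beta drive and interleukin-1 alpha sets off from the cell surface. Their lysosomes enlarge, and their lamin B1 is lost.

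Totals lay between 15915530 and 20141086 counts in the proliferating and between 16895304 and 21446415 counts in the senescent libraries, with a count in 27661 to 27896 and in 25697 to 28021 genes. All cells carried the fusion, so the level of HRAS, whose transgenic and endogenous reads cannot be told apart, is no check of the labels. Levels are in CPM, counts scaled to the library's total over tested genes times the TMM scaling factor used in the test. HRAS measured 513, 592 and 556 CPM in proliferating and 1244, 1229 and 1233 CPM in senescent libraries. Every senescent library lay above every proliferating one, a rise of 1.16 ± 0.09 on the log2 scale (SE; edgeR adjusted p = 1.59e-13). NRAS, a relative of HRAS, was not called (-0.15 ± 0.08), though it was with scaling by library size (-0.30). Of 15 fibroblast markers all were tested, 4 rose and 10 fell. Markers of other cells stayed low in sum: 16 epithelial markers came to 47.77 to 61.96 CPM in proliferating and 33.78 to 38.83 CPM in senescent libraries, with no count of SFTPC, SCGB1A1 or OVOL1, and 14 leukocyte markers to 2.107 to 2.803 and 2.517 to 3.207 CPM, with no count of CD3E or NKG7. The 13 endothelial markers came to 21.85 to 23.42 and 32.8 to 38.69 CPM, with no count of SOX18. ROBO4 was at 0.895, 0.797 and 0.783 CPM in proliferating and 22.5, 19.6 and 18.4 CPM in senescent libraries, and the rise of this endothelial guidance receptor exceeds that of the sum. TEK, another marker of the list, fell from 14.64, 15.05 and 14.14 CPM to 5.855, 4.462 and 5.902 CPM. Of 8 tested endothelial markers 3 rose, 1 fell and 4 were not called, where 26.7% of all tested genes rose and 25.8% fell. Mitochondrial ribosomal RNA made up 0.859 to 0.961% of counts in proliferating and 1.2 to 1.21% in senescent libraries; its part in the results was not tested.

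The majority of tested genes differed. The edgeR quasi-likelihood test called 9823 genes (52.5% of those tested, Benjamini-Hochberg adjusted p under 0.05), 5001 higher (26.7%) and 4822 lower (25.8%) in senescent cells. The change reached 2-fold (1 on the log2 scale) in 1440 genes that rose (7.7%) and 2221 that fell (11.9%), and 8-fold (3 on the log2 scale) in 300 (1.6%) and 270 (1.44%). Libraries of the 2 states did not overlap for 11625 genes (62.2%), 5919 higher (31.7%) and 5706 lower (30.5%) in senescence. The median over all tested genes was -0.01 and the median size of a change was 0.46. Scaled by library size alone, the median moved by -0.15 and the split became 3780 higher and 6107 lower, so small changes in either direction are relative to the scaling. Of 13501 protein-coding genes 30.8% rose and 29.9% fell, of 1072 long noncoding genes 16.4% and 20.6%, of 730 antisense genes 13% and 19.3%, and of 2674 pseudogenes 17.2% and 11.1%. In bulk RNA, fewer cells with a transcript and less of it per cell cannot be told apart. The 2 groups did not overlap for any gene given library by library below, and changes given as plain numbers are on the log2 scale. Counts of list members below are to be read beside the 26.7% that rose and 25.8% that fell among all tested genes.

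Large rises were seen for cytokines, a transporter, a pseudogene and a long noncoding RNA, among others. TNFSF15, a TNF-family cytokine, stood at 0.211, 0.31 and 0.495 CPM in proliferating and 210.0, 209 and 203 CPM in senescent libraries, a 582-fold rise. The 2 groups lie far apart, with little spread among the senescent libraries. IL1A measured 0, 0.0886 and 0.0824 CPM in proliferating and 36.1, 31.2 and 32.8 CPM in senescent libraries, and IL1B was at 0.632, 0.443 and 0.825 CPM in proliferating and 252, 221 and 222 CPM in senescent libraries. These are the 2 agonist cytokines of the interleukin-1 receptor; they rose by 8.94 ± 0.27 and 8.49 ± 0.17. SLC16A6, a transporter of the monocarboxylate family, stood at 9.53, 9.25 and 9.32 CPM in proliferating and 595, 609 and 587 CPM in senescent libraries, a 63.7-fold rise (edgeR adjusted p = 3.7e-30). Genes with almost no counts in proliferating cells included CES1P1, a carboxylesterase pseudogene whose reads may come from its parent, which had none and 8.65, 9.11 and 8.94 CPM in the senescent libraries (at least 196-fold higher against a floor of 3 counts over the group). DCSTAMP, a fusion protein of osteoclasts, had 1 count in proliferating and 6.29, 7.87 and 7.66 CPM in senescent libraries, a ratio of 483 (95% counting interval 86.2 to 19110). LINC01705, a long noncoding RNA with 4 counts in proliferating libraries, rose by 8.23 ± 0.21.

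The deepest falls had no single function. HTR2B, a serotonin receptor, went from 7.11, 4.87 and 7.17 CPM to 0, 0.046 and 0.0428 CPM, a ratio of 202 (95% counting interval 55.5 to 1671). CEMIP, a hyaluronan-degrading protein, measured 133, 134 and 119.6 CPM in proliferating and 1.37, 1.43 and 1.11 CPM in senescent libraries, a 99.1-fold fall. All senescent values were near 1 CPM. GALNT15, an enzyme that starts O-linked sugar chains, was at 40.7, 36.3 and 38.2 CPM in proliferating and 0.93, 1.15 and 1.2 CPM in senescent libraries, a 34.6-fold fall. CXCL12, the chemokine that binds CXCR4, stood at 13, 9.96 and 12.7 CPM in proliferating and 0.383, 0.23 and 0.257 CPM in senescent libraries, a 40.8-fold fall against the direction of most of its family. SLC7A14, a transporter of the SLC7 family, fell by 5.71, the desmosome linker PPL (-5.46), and the Notch-ligand ubiquitin ligase NEURL1B (-5.29). The HMG-box factor TOX fell by 6.42 (-7.25 without senescent replicate 3).

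**Figure D1:**
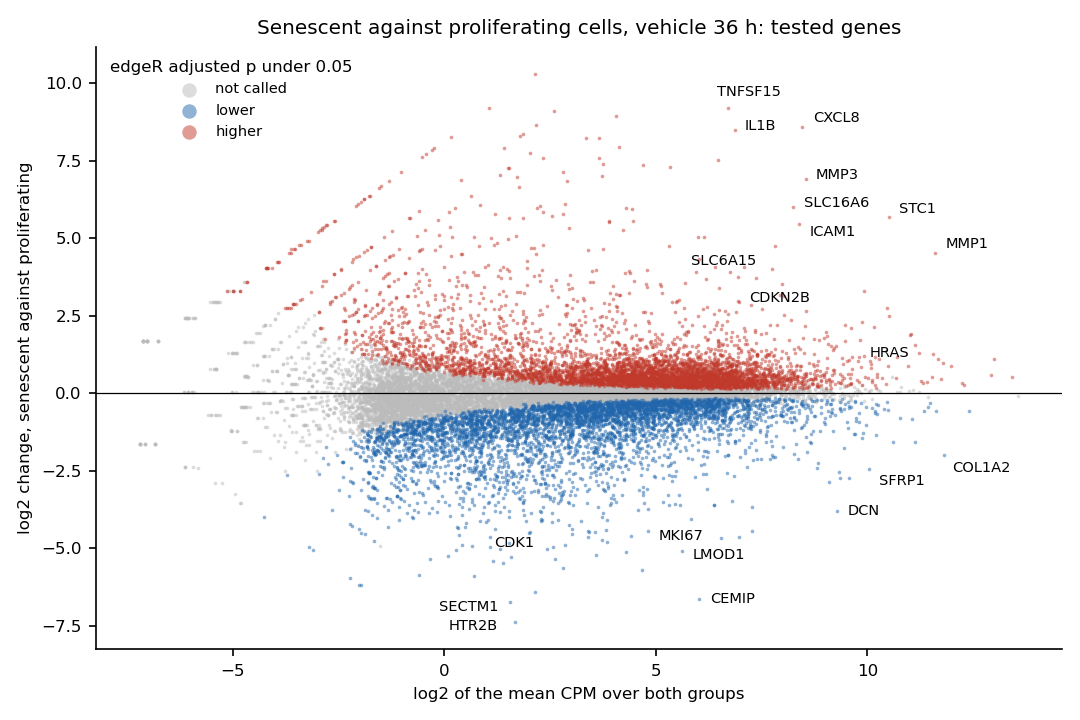
Each point is 1 tested gene, with log2 of its mean CPM over both groups on the x axis and its log2 change, senescent against proliferating at 36 h with vehicle, on the y axis; coloured points were called higher or lower. Rises reach further from 0 than falls at low and middle levels, with TNFSF15 at 9.19, and MMP1 and COL1A2 mark abundant genes that moved by 4.54 and -2.01.

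Most genes of RAS feedback rose, and those of its kinases moved both ways. Of 21 kinase and RAS genes 5 rose, 7 fell and 9 were not called (median -0.11). This split is near that of all tested genes, of which 26.7% rose and 25.8% fell. RASA1, a GTPase-activating protein that turns RAS off, rose by 1.21 and the RAS relative RRAS2 fell by 1.31. Of 9 ERK-directed and related dual-specificity phosphatases 5 rose and 1 fell, with a median of 1.27. DUSP6, the cytoplasmic ERK phosphatase, measured 47.4, 42.7 and 54.6 CPM in proliferating and 318, 322 and 308 CPM in senescent libraries, a 6.55-fold rise (edgeR adjusted p = 2.33e-24). The groups do not overlap. DUSP4 and DUSP5, nuclear phosphatases of the family, rose by 2.91 and 1.70, and DUSP10, which acts on JNK and p38, fell by 1.20. Of 6 Sprouty and SPRED inhibitors, which block signalling to RAS, 4 rose by 1 or more on the log2 scale, SPRY2 from 30.6 ± 2.5 to 142 ± 1.73 CPM (mean ± SD, n = 3) and SPRY4 from 32.1 ± 4.35 to 134 ± 3.08 CPM, and SPRY1 fell by 1.02.

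Transcription factors that ERK acts on rose more often than they fell. Of 12 ETS factors 7 rose and 1 fell (median 0.39), EHF, an epithelial member, from 0.619 ± 0.119 to 28.9 ± 1.42 CPM, ETV4 by 1.30 and ETS1 by 0.94, while ELK3, a repressor, fell by 0.76. Of 13 tested AP-1 factors 8 rose and 2 fell (median 0.65). JUNB rose by 2.19 and the small MAF protein MAFF by 1.96, whereas FOSL2 fell by 0.99. Of 19 immediate early genes 10 rose and 4 fell (median 0.96). IER3, an early-response regulator of survival, was at 19.7, 22.5 and 27.5 CPM in proliferating and 315, 294 and 317 CPM in senescent libraries, a 13.2-fold rise. No proliferating library came near a senescent one. EGR2 and EGR3, zinc-finger factors, rose by 2.52 and 2.98 from below 1 CPM, and the Krüppel-like factor KLF4 fell by 2.19. MYC, the growth-driving factor, rose from 20.1 ± 1.41 to 44.4 ± 2.02 CPM, by 1.14 ± 0.11.

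All 10 tested members of the EGF family changed, 7 up and 3 down (median 1.09). EREG, the ligand epiregulin, stood at 10.6, 10.5 and 10.7 CPM in proliferating and 143, 132 and 129.5 CPM in senescent libraries, a 12.7-fold rise. AREG, amphiregulin, had 0.211, 0 and 0.0824 CPM in proliferating and 12.8, 14.2 and 14.6 CPM in senescent libraries and rose by 7.14 (8.13 without proliferating replicate 1). HBEGF and NRG1, ligands of ERBB1 and ERBB4 and of ERBB3 and ERBB4, rose by 2.61 and 2.29. EGF itself fell by 1.38 and the receptor ERBB2 (-1.20). The ligands and receptors therefore did not move one way.

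Most cell-division genes fell, with the lowest list median at the spindle. Of 41 spindle and kinesin genes 37 fell and 3 rose (median -2.18), of 36 kinetochore and checkpoint genes 33 fell and 2 rose (-1.91), of 20 cohesin and condensin genes 12 fell and 1 rose (-0.68), of 50 replication genes 33 fell and 2 rose (-0.83), and of 33 genes of homologous recombination and the Fanconi pathway 23 fell and 2 rose (-0.80). MKI67, the coat protein of mitotic chromosomes, measured 59.8, 60.7 and 41.7 CPM in proliferating and 1.92, 2.62 and 2.78 CPM in senescent libraries, a 21.9-fold fall. CDK1, the mitotic kinase, was at 11.5, 11 and 11.9 CPM in proliferating and 0.109, 0.322 and 0.599 CPM in senescent libraries, a log2 change of -4.96 ± 0.30 (-5.63 without senescent replicate 3). In both genes every senescent library lay far below the lowest proliferating one. KIF20A, a kinesin of cytokinesis, fell by 4.64, NDC80, which ties kinetochores to microtubules (-4.11), TOP2A, the topoisomerase of mitosis (-3.61), NCAPG, a condensin subunit (-3.52), and CCNA2, cyclin A2 (-2.86). Levels were not at 0: TOP2A kept 5.64, 6.3 and 6.07 CPM.

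The promoters of CDK1 and MKI67 are shown as 2 examples among the many genes that fell, picked because their start regions hold elements known from cell-cycle genes. These are the cell cycle homology region, TTTGAA, which the repressive DREAM complex binds, and the CCAAT box, which the activator NF-Y binds. Both were searched on both strands and are printed in capitals. Sequences are the 250 bases before the annotated start, 5′ to 3′ on the gene's strand, from RefSeq, build GRCh38.p14, which differs from the hg19 build of the counts.
CDK1: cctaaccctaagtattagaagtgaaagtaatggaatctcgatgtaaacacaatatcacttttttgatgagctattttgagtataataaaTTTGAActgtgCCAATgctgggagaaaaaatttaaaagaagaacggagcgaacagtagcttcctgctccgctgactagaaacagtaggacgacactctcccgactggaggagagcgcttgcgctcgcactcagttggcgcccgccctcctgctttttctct
MKI67: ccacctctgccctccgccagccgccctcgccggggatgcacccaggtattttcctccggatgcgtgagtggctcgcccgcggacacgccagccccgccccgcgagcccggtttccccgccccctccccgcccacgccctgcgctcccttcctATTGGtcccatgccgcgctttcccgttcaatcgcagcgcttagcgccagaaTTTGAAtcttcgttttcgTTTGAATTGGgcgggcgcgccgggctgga
In the CDK1 promoter (chr10:60778081-60778330, plus strand) TTTGAA begins at -161 and CCAAT at -150 from the start. The MKI67 promoter (chr10:128126424-128126673, minus strand) holds TTTGAA at -47 and -29 and CCAAT, on the other strand, at -98 and -24, the last sharing 1 base with the element at -29. Of 36 spindle genes with a promoter sequence, 18 held TTTGAA (50%) and 29 held CCAAT (80.6%), against 13.6% and 33% of 27305 promoters of the same length and 9.06% and 34.8% of the 11725 promoters of tested genes. TTTGAA stood in 7 of 29 promoters of kinetochore genes (24.1%) and 0 of 43 of replication genes, and all genes called lower by 1 or more on the log2 scale held TTTGAA in 11% and CCAAT in 34.8%. The E2F-type letters TTNGCGC stood in 15 of 43 promoters of replication genes (34.9%), against 6.73% and 10.3%. The CDK1 and MKI67 promoters printed above also hold these letters, which are not in capitals there. A match of letters is a description and not a site.

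The brakes and switches of the cycle split. CDKN2B, the CDK4 and CDK6 inhibitor p15, stood at 28.3, 28.7 and 29.6 CPM in proliferating and 224, 223 and 219 CPM in senescent libraries, a 7.68-fold rise (edgeR adjusted p = 4.68e-27). CDKN1A, the inhibitor p21, measured 688, 658 and 766 CPM in proliferating and 1431, 1451 and 1442 CPM in senescent libraries, a rise of 1.03 ± 0.07. CDKN2A, the locus of p16 and ARF, which a gene count does not separate, was at 18.7, 17.6 and 25.6 CPM in proliferating and 46.6, 48.4 and 52.8 CPM in senescent libraries, a rise of 1.25 ± 0.13. For all 3 inhibitors the groups stand apart. Inhibitors with the opposite course were CDKN2C (p18), which fell by 3.68, CDKN1C (p57) (-3.27), and CDKN3, a phosphatase of mitotic cells (-2.69). Of 19 RB and E2F genes 7 rose and 9 fell (median -0.15). MYBL2 and FOXM1, activators of mitotic genes, fell (log2 changes of -5.41 and -3.10). E2F7, a repressor among the E2F factors, stood at 16.8, 19.6 and 14.9 CPM in proliferating and 226, 235 and 230.1 CPM in senescent libraries, a 13.5-fold rise. RB1 itself was not called (0.07 ± 0.07). Of 22 cyclins and CDKs 13 fell and 5 rose (median -0.72); CCNE2, a cyclin of S phase entry, fell by 3.48 (-4.25 without senescent replicate 3) and its sister CCNE1 rose by 0.76.

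Nucleotide synthesis did not follow replication as a list: of 28 genes 11 rose and 10 fell (median -0.02), a majority that turned to 8 higher and 12 lower with scaling by library size. Its S-phase members fell, TK1, thymidine kinase (-4.07), RRM2, the ribonucleotide reductase subunit (-2.78), and TYMS (-2.10), and CTPS1, CTP synthase, rose by 1.17. Of 33 lamina and chromatin proteins 16 fell and 2 rose (median -0.22). LMNB1, lamin B1, measured 16, 15.8 and 14.2 CPM in proliferating and 1.37, 1.1 and 1.33 CPM in senescent libraries, a 12.1-fold fall. HMGB2, a chromatin protein lost in senescence, fell by 2.58, and the architectural factors HMGA1 and HMGA2 rose by 0.61 and 1.60. Of 13 tested replication-dependent histones 7 rose and 3 fell (median 0.55), with H4C8 higher by 1.09; histone copies can share reads, and most of their transcripts have no poly(A) tail for a kit that selects mRNA.

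Interleukin-1 genes rose more often than they fell. Of 13 tested genes of the family 7 rose and 2 fell (median 1.98). The signalling adaptor IRAK2 went from 9.31 ± 0.472 to 46.7 ± 1.78 CPM, while CASP1, the protease that matures IL-1 beta, fell from 25.8 ± 2.21 to 3.26 ± 0.42 CPM and the receptor IL1R1 fell by 0.51. Of 16 IL6-type genes 9 rose and 6 fell (median 0.83). IL6 was at 1.05, 0.841 and 1.65 CPM in proliferating and 14.7, 13.4 and 13.6 CPM in senescent libraries, a 11.6-fold rise (edgeR adjusted p = 4.25e-14). LIF stood at 62.6, 62.4 and 64.6 CPM in proliferating and 259.8, 255 and 266 CPM in senescent libraries, a rise of 2.04 ± 0.12. The lowest senescent values of both cytokines lie well above the highest proliferating ones. IL11, a profibrotic member, rose by 2.26, its receptor IL11RA fell by 1.67, and SOCS1, which curbs cytokine receptors, fell by 2.33. CSF2 and CSF3, the granulocyte-macrophage and granulocyte colony factors, had 1 and 3 counts in proliferating cells and mean levels of 5.34 ± 0.889 and 10.1 ± 0.79 CPM in senescent ones, ratios of 347 (95% counting interval 61.8 to 13740) and 219 (95% counting interval 74.8 to 1067). IL16 and the TNF-family ligand TNFSF4 fell (log2 changes of -2.54 and -2.31).

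CXC chemokines had the highest median over tested members of the 73 lists described. Of their 20 matched members 7 had too few counts for a test. A gene was kept with enough counts in any group, so members low in proliferating cells could enter through groups where they are high. What this does to the rank was not tested. Of 13 tested CXC chemokines 9 rose, all by 1 or more on the log2 scale, 1 fell and 3 were not called (median 3.81), and their summed level went from 12.93 to 18.22 CPM in proliferating to 804.6 to 959.8 CPM in senescent libraries. CXCL8, the neutrophil attractant, measured 2.53, 1.06 and 1.94 CPM in proliferating and 787, 654 and 672 CPM in senescent libraries, a 386-fold rise (edgeR adjusted p = 3.93e-23). CXCL1 was at 0.158, 0.0443 and 0.206 CPM in proliferating and 41.8, 31 and 32.6 CPM in senescent libraries, and CXCL5 stood at 0.685, 0.531 and 0.33 CPM in proliferating and 87.4, 78.7 and 75 CPM in senescent libraries, ligands of the same receptor CXCR2. They rose by 7.93 ± 0.40 and 7.30 ± 0.34, and CXCL3 by 8.24 ± 0.39 (8.83 without proliferating replicate 3). Replicate 1 was the highest senescent library for CXCL1, CXCL3, CXCL5 and CXCL8. Of 7 tested CC chemokines 4 rose (median 0.82), CCL20, the ligand of CCR6, by 6.86 ± 0.38 (7.56 without proliferating replicate 3) and the monocyte attractant CCL2 by 0.82 ± 0.21. CCL3, CCL4 and CCL5 were not matched to an identifier, and 3 further members were not tested.

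**Figure D2:**
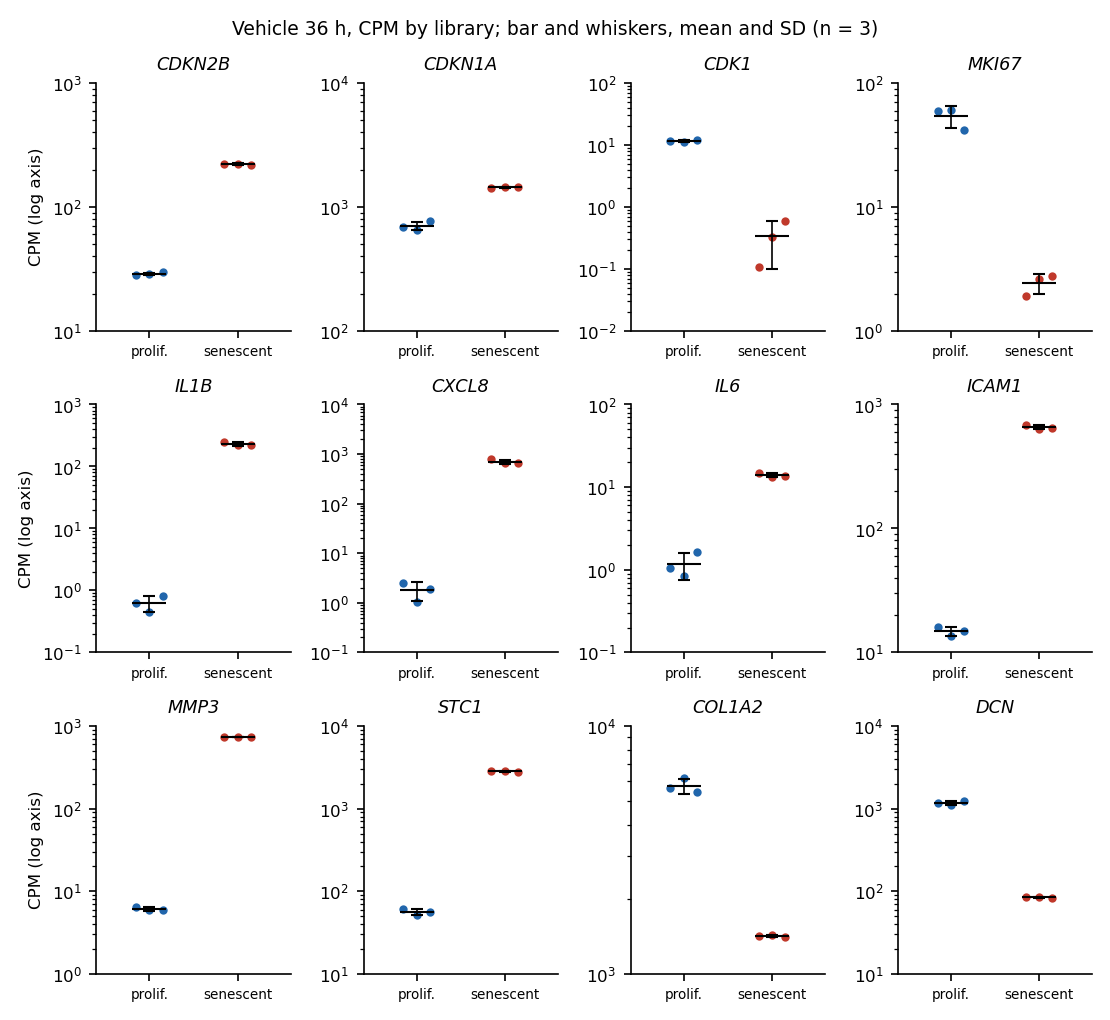
Each panel is 1 gene, with the CPM of the 3 proliferating and 3 senescent libraries at 36 h on a log axis, and bars and whiskers are the mean and SD (n = 3). Senescent points lie above proliferating ones for the CDK inhibitors, ICAM1 and the secreted factors and below them for MKI67, CDK1, COL1A2 and DCN, with IL1B at 232 ± 17.4 against 0.633 ± 0.191 CPM.

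Genes of NF-kB and its targets rose in 17 of 25 cases and fell in 3 (median 0.93). ICAM1, the adhesion molecule that leukocyte integrins bind, measured 16.1, 13.6 and 14.8 CPM in proliferating and 682, 631 and 652 CPM in senescent libraries, a 44.2-fold rise (edgeR adjusted p = 2.37e-26). NFKBIZ, the nuclear co-activator I kappa B zeta, was at 11.4, 9.96 and 9.81 CPM in proliferating and 90.3, 75.9 and 84 CPM in senescent libraries, a rise of 3.01 ± 0.11. Both groups of libraries are tight. VCAM1, the other endothelial-type adhesion molecule of the list, fell from 20.6 ± 0.41 to 3.6 ± 0.367 CPM and TNFAIP8, an apoptosis regulator, fell by 2.55. CEBPB, the gene of C/EBP beta, rose from 15.8 ± 2.05 to 45 ± 1.11 CPM.

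Start regions of 4 of these genes are shown because they rose together and are classic NF-kB targets. The capitals mark the kappa B letters GGNNTTTCC and the AP-1 letters TGANTCA on either strand, in the 250 bases before the start (RefSeq, GRCh38.p14, 5′ to 3′ on the gene's strand).
CXCL8: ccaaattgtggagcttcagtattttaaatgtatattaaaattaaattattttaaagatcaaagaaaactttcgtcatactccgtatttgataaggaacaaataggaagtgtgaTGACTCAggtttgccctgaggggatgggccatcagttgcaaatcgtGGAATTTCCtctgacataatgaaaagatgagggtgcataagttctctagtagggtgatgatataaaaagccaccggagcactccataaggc
CXCL1: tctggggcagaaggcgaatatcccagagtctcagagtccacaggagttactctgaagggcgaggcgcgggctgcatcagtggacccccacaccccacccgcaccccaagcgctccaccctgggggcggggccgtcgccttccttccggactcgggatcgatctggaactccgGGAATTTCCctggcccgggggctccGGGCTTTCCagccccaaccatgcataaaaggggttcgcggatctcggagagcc
IL6: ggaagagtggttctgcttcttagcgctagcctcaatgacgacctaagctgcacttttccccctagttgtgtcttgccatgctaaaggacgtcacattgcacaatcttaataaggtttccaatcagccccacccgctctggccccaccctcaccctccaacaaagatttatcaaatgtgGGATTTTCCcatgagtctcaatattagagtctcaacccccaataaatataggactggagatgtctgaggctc
ICAM1: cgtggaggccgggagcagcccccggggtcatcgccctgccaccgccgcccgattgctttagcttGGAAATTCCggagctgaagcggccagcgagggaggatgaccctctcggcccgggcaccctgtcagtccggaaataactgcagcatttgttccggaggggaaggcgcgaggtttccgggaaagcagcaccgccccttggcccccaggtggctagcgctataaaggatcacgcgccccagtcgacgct
The CXCL8 promoter (chr4:73740319-73740568, plus strand) holds kappa B letters from -91 to -83 and AP-1 letters from -137 to -131. In the CXCL1 promoter (chr4:73869143-73869392, plus strand) kappa B letters stand from -78 to -70 and from -53 to -45. They stand from -72 to -64 in IL6 (chr7:22726950-22727199, plus strand) and from -186 to -178 in ICAM1 (chr19:10270870-10271119, plus strand). Kappa B letters stood in 9 of 17 promoters of CXC chemokines (52.9%) and 11 of 22 of the NF-kB list (50%), against 5.48% of 27305 promoters and 5.88% of those of tested genes. They stood in 1 of 12 promoters of the interleukin-1 list (8.33%), in 0 of 9 of matrix metalloproteases and in 7.34% of those of all genes called higher by 1 or more on the log2 scale. The 4 genes and the NF-kB list were chosen as known NF-kB genes, so their letters are no test of NF-kB. Here too a match of letters is a description and not a site.

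Collagenases and stromelysins rose with them. Of 14 tested matrix metalloproteases 8 rose and 3 fell (median 1.10), and the list summed to 1171 to 1185 CPM in proliferating and 8845 to 8977 CPM in senescent libraries. MMP1, the interstitial collagenase, stood at 262, 248 and 263 CPM in proliferating and 6034, 5954 and 5923 CPM in senescent libraries, a 23.2-fold rise. MMP3, stromelysin 1, measured 6.48, 5.93 and 5.94 CPM in proliferating and 736, 738 and 738 CPM in senescent libraries, a 121-fold rise (edgeR adjusted p = 1.13e-28). MMP10, stromelysin 2, was at 0.211, 0.133 and 0.0412 CPM in proliferating and 24.2, 24.7 and 25.9 CPM in senescent libraries, a 194-fold rise. Between groups the 3 genes share no value, and within the senescent group they vary by a few percent. MMP19 fell by 2.21. Of 21 ADAM and ADAMTS genes 13 fell and 5 rose (median -0.57); ADAM19, a shedding protease, rose by 2.66 and ADAMTS8 fell by 2.69.

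The plasminogen and serpin list rose in 15 of 19 tested members and fell in 3 (median 1.55). SERPINB2, the inhibitor PAI-2, stood at 13.2, 12.4 and 14.8 CPM in proliferating and 204, 203 and 200.4 CPM in senescent libraries, a 15-fold rise. TFPI2, an inhibitor of plasmin and coagulation proteases, measured 23.2, 24.9 and 28.4 CPM in proliferating and 428, 395 and 398 CPM in senescent libraries, a 15.9-fold rise. The lowest senescent library was above the highest proliferating one in both. THBD, thrombomodulin, rose by 4.98, and SERPING1, the C1 inhibitor, and SERPINF1, the anti-angiogenic factor PEDF, fell (log2 changes of -1.89 and -1.80). Of 13 tested TIMPs, cystatins and related inhibitors 8 rose and 4 fell (median 1.00). The salivary-type cystatins CST1, CST2 and CST4 had 1, 2 and 1 counts in proliferating cells and means of 8.94 ± 0.898, 1.78 ± 0.38 and 6.91 ± 0.568 CPM in senescent ones; they are near-identical copies, so reads may be shared among them. TIMP3 and RECK, membrane- and matrix-bound inhibitors, fell (log2 changes of -1.74 and -1.60).

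Other mediators split by gene. PTGS2, the inducible cyclooxygenase COX-2, was at 0.843, 0.62 and 0.618 CPM in proliferating and 45.4, 41.7 and 41.5 CPM in senescent libraries, a 62-fold rise, while the constitutive PTGS1 fell by 2.30 and the prostaglandin E2 receptor PTGER2 (-2.96); over 18 tested prostaglandin genes 5 rose and 9 fell (median -0.44). C3, the central complement component, stood at 0.737, 1.28 and 0.783 CPM in proliferating and 37.3, 36.2 and 36.1 CPM in senescent libraries, a 38.5-fold rise, against 8 of 13 tested complement genes that fell (median -1.13), C1R (-3.28). None of 31 tested interferon-stimulated genes rose and 14 fell (median -0.73), IFIT2 (-2.84) and the GTPase GBP1 (-2.22). Of 25 tested genes of antigen presentation 7 rose and 11 fell (median -0.28); the stress ligands ULBP1 and ULBP2, which engage NKG2D on killer cells, rose by 1.77 and 1.94, and the class II loader HLA-DMA and the immunoproteasome subunit PSMB9 fell (log2 changes of -2.50 and -2.63).

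**Figure D3:**
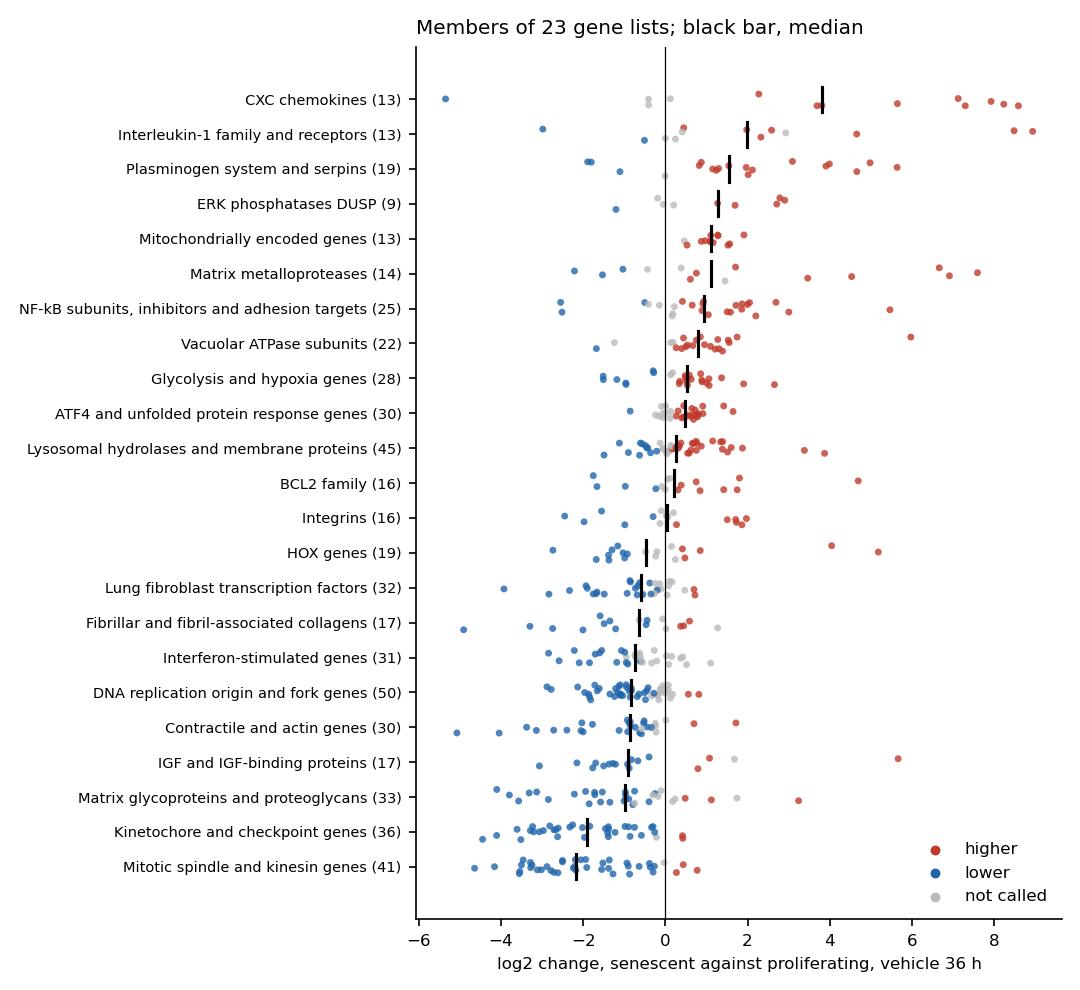
Each row is 1 of 23 gene lists with its number of tested members, each point is the log2 change of 1 member on the x axis, coloured where called, and the black bar is the median. Spindle and kinetochore lists have the lowest medians, -2.18 and -1.91, and CXC chemokines the highest, 3.81; the median of the integrins, 0.04, turns to -0.11 with scaling by library size.

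Growth factor genes changed one by one. STC1, stanniocalcin, which inhibits the IGF-freeing protease PAPPA, measured 61.4, 51.4 and 55.9 CPM in proliferating and 2878, 2868 and 2808 CPM in senescent libraries, a 50.8-fold rise (edgeR adjusted p = 3.93e-26). In the IGF list, which holds STC1, 13 of 17 genes fell and 3 rose (median -0.92), IGFBP6 (-2.15) and IGF1 (-3.07) (-3.68 without senescent replicate 3). GDF15, a stress hormone of the TGF-beta family, was at 8.74, 9.25 and 10.3 CPM in proliferating and 156, 158 and 161 CPM in senescent libraries, a 16.7-fold rise. BMP2, a bone morphogenetic protein, stood at 4.11, 3.72 and 3.63 CPM in proliferating and 128, 125 and 121 CPM in senescent libraries, a 32.7-fold rise, while GDF6 fell by 3.59 and ID2, a target of BMP signalling (-3.17). Over 31 tested genes of this family 11 rose and 14 fell (median 0.13, -0.02 scaled by library size). ANGPTL4, a lipase inhibitor and vascular factor, measured 3.21, 3.81 and 5.36 CPM in proliferating and 137, 139 and 134 CPM in senescent libraries, a 32.6-fold rise. VEGFA rose by 1.91, and PDGFD and the receptor PDGFRB, which marks fibroblasts and pericytes, fell (log2 changes of -3.15 and -2.57). Of 9 tested FGF genes 3 rose and 4 fell; FGF9 went from 2.53, 3.5 and 3.59 CPM to 2 libraries without a count and 1 with 0.128 CPM, and FGF2 rose by 0.71. In WNT genes 7 of 20 rose and 9 fell (median 0.14, -0.01 scaled by library size). SFRP1, a secreted WNT antagonist, was at 1825, 1755 and 1708 CPM in proliferating and 328, 328 and 325 CPM in senescent libraries, a 5.39-fold fall. The receptor FZD8 rose by 4.66, while FZD7 and the ligand WNT2 fell (log2 changes of -2.59 and -4.59). Of 14 tested Notch genes 5 rose and 2 fell (median 0.03, -0.12 scaled by library size), the targets HEY1 and HES1 higher by 2.91 and 2.48.

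Most tested collagens, glycoproteins and proteoglycans of the matrix fell. Of 17 fibrillar and associated collagens 10 fell and 3 rose (median -0.64), and of 33 tested matrix glycoproteins and proteoglycans 23 fell and 3 rose (median -0.97). COL1A2, a chain of type I collagen, stood at 5602, 6141 and 5409 CPM in proliferating and 1422, 1434 and 1415 CPM in senescent libraries, a 4.02-fold fall. COL3A1, type III collagen, measured 1123, 1208 and 1073 CPM in proliferating and 175, 165 and 169 CPM in senescent libraries, a 6.69-fold fall. DCN, the collagen-binding proteoglycan decorin, was at 1160, 1115 and 1236 CPM in proliferating and 84.2, 84.8 and 83.5 CPM in senescent libraries, a 13.9-fold fall (edgeR adjusted p = 3.93e-25). In all 3 the senescent libraries vary little and lie below every proliferating one. COL1A1 fell by 1.59, COL14A1, a fibril-associated collagen (-4.91), and THBS1, thrombospondin 1, and FBLN1, fibulin 1 (-1.58 and -3.57). SPP1, osteopontin, and TNC, tenascin C, rose by 3.24 and 1.12. Of 19 crosslinking and processing genes 8 rose and 9 fell (median -0.22), PLOD2, a collagen lysyl hydroxylase, and the transglutaminase TGM2 by 1.77 and 1.73, and LOXL1 (-1.78). Of 22 tested basement membrane genes 11 fell and 4 rose (median -0.26), with the laminin chain LAMA2 at -2.68.

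Contractile genes fell in 23 of 30 cases and rose in 2 (median -0.85). ACTA2, smooth muscle actin, stood at 337, 317 and 369 CPM in proliferating and 84.4, 82.1 and 89 CPM in senescent libraries, a 4-fold fall. LMOD1, an actin nucleator of smooth muscle, measured 99.7, 84.7 and 102 CPM in proliferating and 2.63, 3.22 and 2.61 CPM in senescent libraries, a 33.7-fold fall. CNN1, calponin, fell by 2.72, and SMTN, smoothelin, rose by 1.72. Of 16 tested integrins 6 rose and 5 fell (median 0.04), a majority that turned to 5 higher and 6 lower and a median of -0.11 with scaling by library size. ITGA2, a collagen receptor chain, went from 211 ± 28.3 to 828 ± 8.09 CPM, and ITGA7, a laminin receptor chain, fell by 2.45. Of 18 tested cadherins and protocadherins 11 fell and 2 rose (median -0.99), FAT4 (-2.70). Among 35 tested guidance genes 13 rose and 16 fell (median -0.35); the semaphorins SEMA7A and SEMA3C rose by 2.72 and 1.96, and SEMA3B and SEMA3D fell (log2 changes of -3.33 and -3.10).

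Genes of the BCL2 family, which holds both pro-survival and death-promoting proteins, moved both ways. Of 16 tested BCL2 family genes 8 rose and 4 fell (median 0.21). MCL1, a pro-survival member, was at 195, 196 and 193 CPM in proliferating and 663, 648 and 650.1 CPM in senescent libraries, a 3.36-fold rise. BCL2A1, another pro-survival member and an NF-kB target, stood at 0.158, 0.354 and 0.412 CPM in proliferating and 8.21, 9.06 and 8 CPM in senescent libraries, a 25.9-fold rise. For both genes the groups do not overlap. The death-promoting PMAIP1, NOXA, rose by 1.80, and BCL2 and the death-promoting BCL2L11, BIM, and BBC3, PUMA, fell (log2 changes of -1.75, -1.67 and -0.98). Of 27 tested death receptors and caspases 13 rose and 6 fell (median 0.24), with the decoy TRAIL receptor TNFRSF10D and the TRAIL receptors TNFRSF10A and TNFRSF10B higher by 2.11, 1.67 and 1.49. In the ATF4 and unfolded protein list 20 of 30 rose and 1 fell (median 0.47), TRIB3, a pseudokinase, by 1.65 and DDIT3, CHOP, by 0.91. Of 21 NRF2 genes 4 rose and 6 fell (median 0.03, -0.12 scaled by library size), and of 21 tested heat shock genes 11 rose and 9 fell (median 0.29), 9 and 10 scaled by library size, with CRYAB lower (log2 change of -3.48).

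Lysosomal genes rose in 25 of 45 tested cases and fell in 11 (median 0.26), and 18 of 22 tested subunits of the vacuolar ATPase, which acidifies the lysosome, rose against 1 that fell (median 0.80). CTSB, the protease cathepsin B, measured 888, 824 and 911 CPM in proliferating and 3162, 3242 and 3233 CPM in senescent libraries, a 3.67-fold rise. NPC1, the cholesterol exporter of lysosomes, was at 16.7, 16.9 and 14 CPM in proliferating and 159, 167 and 169 CPM in senescent libraries, a 10.4-fold rise. GLB1, the beta-galactosidase behind the usual stain for senescent cells, stood at 88.7, 79.4 and 88.1 CPM in proliferating and 133, 143 and 137 CPM in senescent libraries, a rise of 0.69 ± 0.07. The senescent libraries lie above the proliferating ones for each of the 3. ATP6V0D2, a pump subunit known from osteoclasts, went from below 0.3 to 9.04 ± 0.682 CPM, the general subunit ATP6V1B2 rose by 1.75, and CTSF, cathepsin F, fell by 1.49. Of 29 autophagy genes 16 rose and 6 fell (median 0.27); the cargo receptor SQSTM1 rose by 1.20 and GABARAPL1 fell by 1.59.

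Most lists of energy genes had more rises than falls. Of 28 tested glycolysis and hypoxia genes 19 rose and 7 fell (median 0.52), HK2, hexokinase 2, by 2.66. Of 13 mitochondrially encoded genes 12 rose (median 1.10), with MT-ND2 at 1051, 629.5 and 958 and 3177, 3300 and 3447 CPM; proliferating replicate 2 was lowest for MT-ND1, MT-ND2, MT-ND3 and MT-CYB, and the share of mitochondrial ribosomal RNA was higher in the same senescent libraries. Of 43 nuclear genes of oxidative phosphorylation 18 rose and none fell (median 0.24), none by 1 or more on the log2 scale, and scaled by library size 9 rose and 2 fell. Of 26 tested cholesterol synthesis genes 13 rose and 3 fell (median 0.31), and of 27 tested fatty acid genes 15 and 7 (median 0.34). Of 19 tested iron and metallothionein genes 14 rose and 2 fell (median 0.75): MT2A, a metallothionein, went from 95.4 ± 12.6 to 493 ± 3.46 CPM, and SLC40A1, the iron exporter ferroportin, fell by 3.87. SLC6A15, an amino acid transporter, measured 16.3, 14.7 and 17.6 CPM in proliferating and 437, 438 and 418 CPM in senescent libraries, a 26.5-fold rise, in a transporter list where 13 of 28 rose and 10 fell (median 0.11), 11 and 12 with a median of -0.04 scaled by library size. Of 7 tested Na/K-ATPase genes, the pump that digoxin and ouabain block elsewhere in the study, 4 rose and 1 fell (median 0.24), and the regulator FXYD5 rose by 1.33 ± 0.08. Of 46 tested ion channel genes 27 fell and 12 rose (median -0.65), the potassium channels KCNK2 (-4.43) and KCNJ15 by 5.33.

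More identity genes of lung fibroblasts fell than rose. Of 32 tested transcription factors of these cells 20 fell and 2 rose (median -0.59), TBX4, a lung mesenchyme factor, from 1.75 ± 0.552 to 0.239 ± 0.0309 CPM and PRRX2 (-3.93), with ZEB1 higher by 0.70. Of 19 tested HOX genes 9 fell and 5 rose (median -0.48), HOXA2 (-2.74) and HOXB2 by 0.85. Of 42 matched genes of the epidermal barrier and keratins 28 had too few counts for a test. Among the 14 tested 6 rose and 3 fell (median 0.11, -0.02 scaled by library size). Involucrin, IVL, had no count in proliferating and 2.74, 2.16 and 1.8 CPM in senescent libraries (at least 48.1-fold higher). LCE1F had 1 count and 11.1, 13.1 and 12.1 CPM (ratio 801, 95% counting interval 143 to 31660), and late cornified envelope genes are near copies. Both passed the filter on counts through senescent groups. KRT19, a keratin of simple epithelia, fell by 5.02 (-5.65 without senescent replicate 3). Of 34 tested noncoding RNA genes 11 rose and 10 fell (median -0.10), shares near the 26.7% and 25.8% of all tested genes. Scaled by library size the counts became 11 and 14. MIR31HG, the host gene of miR-31, was at 2.32, 1.64 and 2.27 CPM in proliferating and 13.4, 14.9 and 13.9 CPM in senescent libraries, a 6.77-fold rise. LINC00973 rose by 3.51 and MIAT fell by 2.40.

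The same comparison after 16 h of vehicle, in libraries that are all different, gave 9651 calls (51.6%), 4945 higher (26.4%) and 4706 lower (25.2%); scaled by library size these became 3849 and 5592. Called higher at both times were 3997 genes, 79.9% of those at 36 h and 80.8% of those at 16 h, and called lower 3774 genes, 78.3% and 80.2%, with 21 genes called in opposite directions. The difference between the senescence effects at 36 h and 16 h was called for 399 genes (2.13%), 229 higher (1.22%) and 170 lower (0.909%) at 36 h. Scaled by library size the split became 156 and 210. Between 16 h and 36 h 1522 genes were called in proliferating cells (8.14%) and 287 in senescent cells (1.54%). This order turned round in fits of only the compared groups, with 84 and 1093 calls. Proliferating replicate 2 at 16 h stood apart from its group and held 2.52% mitochondrial ribosomal RNA. Without this library the 399 became 488. Over all fits without a single library the number lay between 264 and 1098, the latter without proliferating replicate 1 at 16 h.

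**Figure D4:**
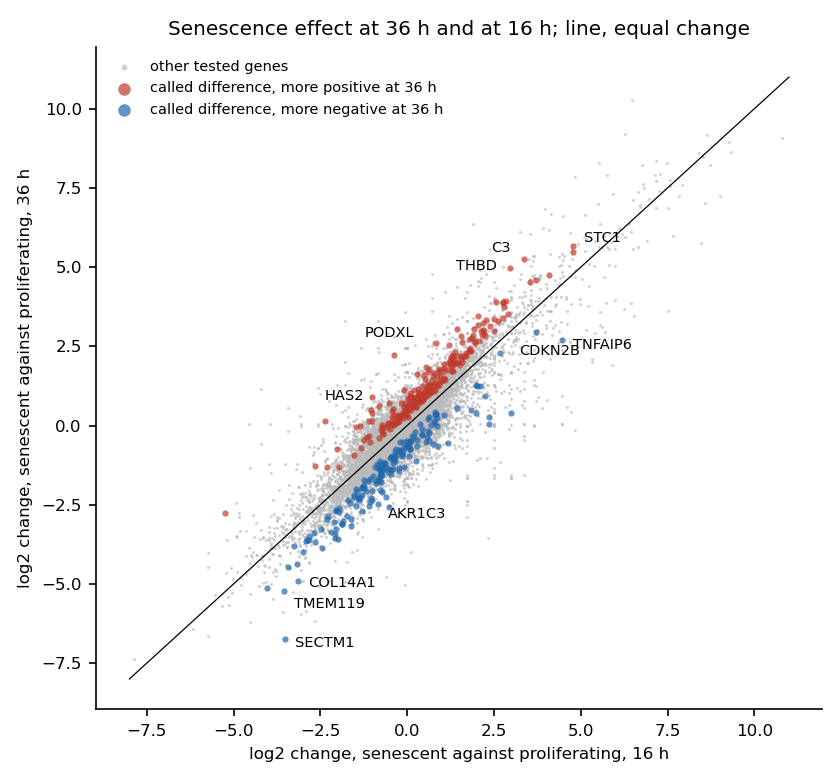
Each point is 1 tested gene, with its log2 change between senescent and proliferating cells after 16 h on the x axis and after 36 h on the y axis; coloured points are genes whose 2 changes differ by the test, and the line marks equal change. Most points lie near the line, and C3, PODXL and TMEM119 are among those off it, with differences of 1.89 ± 0.32, 1.78 ± 0.20 and -1.67 ± 0.36.

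In several of these genes the level of proliferating cells differed between the times. TMEM119, a membrane protein known from osteoblasts and microglia, stood at 12 ± 1.09 CPM in proliferating and 1.01 ± 0.164 CPM in senescent cells at 16 h and at 23.3 ± 1.97 and 0.618 ± 0.156 CPM at 36 h, a difference of -1.67 ± 0.36 (edgeR adjusted p = 0.00678). COL14A1 stood at 4.53 ± 1.06 and 0.504 ± 0.119 CPM at 16 h and at 13.9 ± 1.89 and 0.456 ± 0.0167 CPM at 36 h, a difference of -1.75 ± 0.47 (edgeR adjusted p = 0.0362), a call that was lost in the fit of the 4 groups alone (-1.74) and without most single libraries (-1.78 to -1.61). Between 16 h and 36 h the proliferating level changed by 0.96 and 1.63 (edgeR adjusted p = 3.67e-05 and 1.29e-07), and no change was called in senescent cells. The senescent libraries of TMEM119 still did not overlap between the times, with 0.851 to 1.179 CPM at 16 h and 0.4704 to 0.782 CPM at 36 h. AKR1C3, a prostaglandin reductase, stood at 3 ± 1.33 and 1.69 ± 0.304 CPM at 16 h and at 9.46 ± 0.879 and 1.7 ± 0.282 CPM at 36 h, a difference of -1.62 ± 0.31 (adjusted p = 0.00163), a call that was lost in the fit of the 4 groups alone (-1.61, adjusted p = 0.0832). SECTM1, a secreted and membrane protein, had the lowest difference, -3.22 ± 0.86 (adjusted p = 0.0348), with 2.9 ± 0.727 and 0.245 ± 0.0821 CPM at 16 h and 5.81 ± 1.15 and 0.0489 ± 0.0463 CPM at 36 h, where the 3 senescent libraries held 3 counts in all (36 h ratio 124 (95% counting interval 42.2 to 605)). The call was lost in a fit of the 4 groups alone and in most fits without a single library, among them senescent replicate 3 at 36 h (-2.63). HAS2, a hyaluronan synthase, stood at 27 ± 1.98 and 15.4 ± 0.303 CPM at 16 h and at 9.63 ± 0.489 and 14.8 ± 1.32 CPM at 36 h, lower in senescence at the first time and higher at the second (difference 1.42 ± 0.21), where its proliferating level changed (-1.49) between the times (adjusted p = 2.14e-08).

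For C3 the senescent level differed between the times. C3 stood at 0.917 ± 0.499 and 9.42 ± 0.388 CPM at 16 h and at 0.935 ± 0.303 and 36.5 ± 0.664 CPM at 36 h, a difference of 1.89 ± 0.32 (edgeR adjusted p = 0.000466). Its senescent level changed by 1.96 between the times (adjusted p = 3.61e-13). PODXL, a sialomucin, stood at 15.4 ± 3.28 and 27.1 ± 1.65 CPM at 16 h and at 7.33 ± 0.993 and 44.5 ± 2.03 CPM at 36 h, a difference of 1.78 ± 0.20 (adjusted p = 8.24e-07), where both the proliferating and the senescent level changed (log2 changes of -1.06 and 0.72). TNFAIP6, a hyaluronan-binding inflammatory protein, went the other way, from 0.515 ± 0.224 and 12.2 ± 1.25 CPM at 16 h to 1.29 ± 0.331 and 8.31 ± 0.161 CPM at 36 h, a difference of -1.78 ± 0.36 (adjusted p = 0.00282), again with a change in both states (1.23 and -0.55). Among genes described above, the effect was larger at 36 h for HMGA2 (1.10 ± 0.09), MMP1 (0.98 ± 0.15), STC1 (0.87 ± 0.18), SERPINB2 (1.15 ± 0.15) and E2F7 (0.97 ± 0.17), and smaller for CDKN2B (-0.78 ± 0.10). In these 6 genes the proliferating level changed between the times (-1.29, -0.83, -0.89, -1.26, -0.92 and 0.70) and no change was called in senescent cells. Senescent libraries of the 2 times still did not overlap for HMGA2 (915 to 922.5 and 784.9 to 828.7 CPM), MMP1, SERPINB2 and CDKN2B. The calls use a spread estimated over all 36 libraries. In fits of only the compared groups, senescent calls went from 287 to 1093 and proliferating calls from 1522 to 84.

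**Figure D5:**
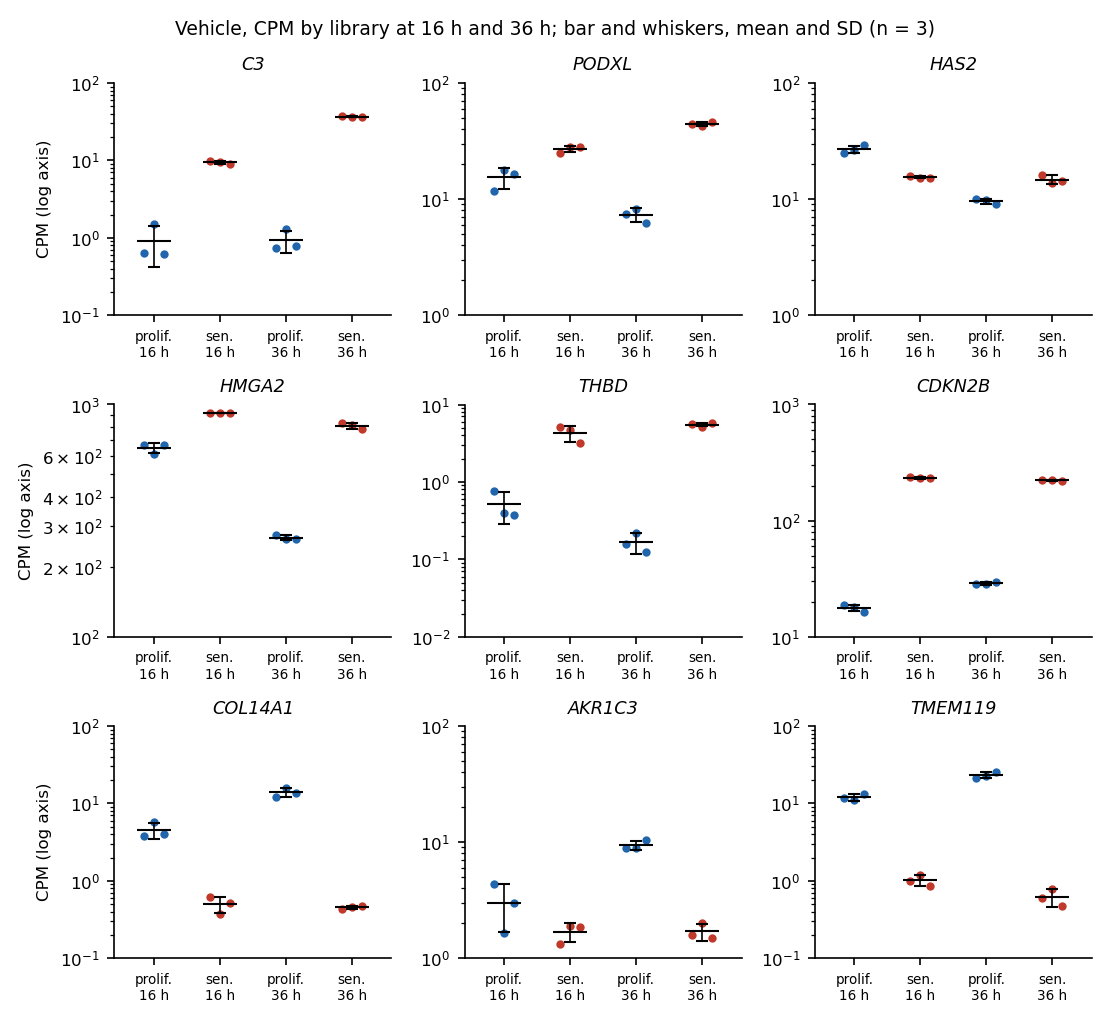
Each panel is 1 gene whose senescence effect differed between the times, with the CPM of each library of proliferating and senescent cells at 16 h and 36 h on a log axis and the mean and SD as bar and whiskers (n = 3). For TMEM119 and COL14A1 the proliferating points rise with time, and for C3 the senescent points rise from 9.42 ± 0.388 to 36.5 ± 0.664 CPM.

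With the caspase inhibitor, again in different libraries, 9787 genes were called (52.3%), 4979 higher (26.6%) and 4808 lower (25.7%), and 3642 and 6052 scaled by library size. Called higher with and without it were 4373 genes, 87.4% and 87.8% of the calls without and with the inhibitor, and called lower 4147 genes, 86% and 86.3%, with 3 genes in opposite directions. The difference between the arms was called by edgeR for 2 genes (0.0107%), both with a smaller fall under the inhibitor. SLC14A1, a urea transporter, fell by 1.30 without it, and the difference was 0.90 ± 0.15 (adjusted p = 0.0251). LMO7, an actin- and emerin-binding protein, fell by 2.39 without it, and the difference was 0.58 ± 0.10 (adjusted p = 0.0283). Both calls were lost without most single libraries, with differences of 0.84 to 0.93 for SLC14A1 and 0.54 to 0.61 for LMO7. An unadjusted p under 0.05 was found for 685 genes (3.66% of those tested), and DESeq2 called 21.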

How the data were processed

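Poly(A) RNA of 36 libraries was counted per gene. The deposited values are raw counts, made with TopHat2 2.0.11 on hg19 and featureCounts per the submitters' processing notes. The annotation and the strand setting of the counting were not given in the sources used here, so overlapping, antisense and near-identical genes can share reads. Of 57232 identifiers 10690 had no count, 51058 were named from a gene name table, 309 from GENCODE and 5865 had no name.

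Genes kept by filterByExpr were scaled by TMM and tested in 1 edgeR 4.0.16 quasi-likelihood model with 12 group means over 36 libraries (R 4.3.3, limma 3.58.1), with Benjamini-Hochberg adjustment over all tested genes and two-sided tests. Values after ± are SD for CPM and SE for log2 changes, the latter the change over the root of F. CPM values come from the deposited counts, scaled to each library's total over tested genes times its TMM factor, and are not corrected for length. At 36 h without the inhibitor this factor was 1.1946 to 1.2104 in proliferating and 1.0814 to 1.0915 in senescent libraries. Exact permutation of 3 against 3 libraries cannot go below p = 0.1 and was not used. The model was tested on simulated data. The comparison, the 73 gene lists, their members and the genes named were chosen with earlier results of these data known, so list counts are descriptions. Named are up to 12 genes in each direction with the largest change and at least 5 CPM, 6 with the largest CPM difference, per list up to 4 members that were called at 1 CPM or more and up to 2 against its majority, genes with the largest time or inhibitor difference, and a fixed panel; the text leaves some out, and GATA4 of the panel was not tested. Some results are not reported here. Of the list names 35 were not matched. Alternatives were DESeq2 1.42.0, its size factors in edgeR, library size alone, no filter, a replicate block, fits of only the groups compared, and fits with 1 library left out. Promoter letters were searched in RefSeq start regions. Figures were drawn with matplotlib 3.10.9.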

Additional observations from a re-analysis of the deposited data

Results flagged for a closer look

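What drew attention here was a called difference between 2 senescence effects, tested as an interaction with edgeR over libraries that the effects do not share. The values are differences of log2 changes, the effect at 36 h minus that at 16 h, and 399 of the tested genes had one called. Among genes named in the text, the effect was more positive at 36 h for C3 (1.89), PODXL (1.78), HAS2 (1.42), SERPINB2 (1.15), HMGA2 (1.10), MMP1 (0.98), E2F7 (0.97), IRAK2 (0.94), SEMA7A (0.92), NT5E (0.90) and STC1 (0.87). The same held for NFKBIZ (0.83), SMTN (0.66), HK2 (0.57), CTPS1 (0.54) and FXYD5 (0.54). It was more negative at 36 h for TNFAIP6 (-1.78), TMEM119 (-1.67), PDGFD (-1.55), SLC40A1 (-1.41), SEMA3D (-1.23), TNFAIP8 (-1.07), PTGS1 (-0.87), CDKN2B (-0.78), COL3A1 (-0.78) and TIMP3 (-0.61). For 18 further genes the sign of the difference stayed and the call was lost in at least 1 alternative fit. Of these the difference was positive for MT2A (0.54), SPRY2 (0.54), LINC00973 (0.62), NPC1 (0.62), ICAM1 (0.69), ITGA2 (0.73), MIR31HG (0.88), ULBP2 (0.89), ROBO4 (0.90) and THBD (2.01), and negative for SECTM1 (-3.22), COL14A1 (-1.75), AKR1C3 (-1.62), MIAT (-1.34), GALNT15 (-1.09), SERPINF1 (-0.90), PTGER2 (-0.66) and DCN (-0.55). The effect with the caspase inhibitor differed from that without it for 2 genes, SLC14A1 (0.90) and LMO7 (0.58), with means of 41.9 ± 2.81 and 17 ± 1.26 CPM (SD, n = 3) for SLC14A1 in proliferating and senescent cells without the inhibitor.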

How the results depend on the processing

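The count of genes that differed between senescent and proliferating cells at 36 h, 9823, lay between 8993 and 9437 when 1 library was left out and between 9443 and 10225 in the other alternatives, which were DESeq2 size factors in edgeR, library size alone, no filter on low counts, DESeq2, a block for the replicate number and a fit of the compared groups alone. Of 222 genes named, TEK not among them, all but NRAS and RB1 kept their sign and side of the threshold at 36 h in these alternatives. NRAS gained a call with library size alone and in the fit of the compared groups alone, and RB1, not called, turned to -0.08 with library size alone.

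The difference between the times moved more. Its 399 calls became 186 in the fit of the compared groups alone and 264 to 1098 without 1 library, with 1098 without proliferating replicate 1 and 264 without senescent replicate 1, both at 16 h. Genes more positive at 36 h numbered 380 with DESeq2, 96 in the compared groups alone and 138 to 573 without 1 library, and genes more negative 90 and 116 to 525. The 2 calls of the inhibitor difference became 1 with RLE size factors, 1 with library size alone, 20 without a filter, 21 with DESeq2, 26 in the compared groups alone and 0 to 2 without 1 library. Between 16 h and 36 h, calls in proliferating cells went to 84 in the compared groups alone and 994 to 2612 without 1 library, and in senescent cells to 1093 and 128 to 148. A fit of fewer libraries has its own, less certain, estimate of the spread, whereas the main model gives each gene 1 spread for all 12 groups. Library pairs differed more in proliferating than in senescent cells. Their chi-square per degree of freedom was 5.364 to 17.93 against 1.411 to 1.571 at 36 h. At 16 h it was 7.595 to 90.513 against 1.725 to 8.487. What this does to the counts of calls was not tested.

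List medians that changed sign did so from values between -0.02 and 0.14 or, for endothelial markers, from 0.32. With library size alone they became -0.02 (TGF-beta genes), -0.12 (Notch), -0.01 (WNT), -0.12 (NRF2), -0.09 (hyaluronan), -0.11 (integrins), -0.04 (transporters), -0.02 (epidermal genes) and -0.04 (leukocyte markers), and in the compared groups alone -0.04 (WNT) and -0.01 (NRF2). Without 1 library, medians ranged from -0.05 to 0.03 (nucleotide synthesis), -0.02 to 0.11 (NRF2 genes), -0.03 to 0.10 (integrins), -0.02 to 0.20 (transporters) and -0.05 to 0.55 (endothelial markers).

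The replicate numbers did not pair the libraries: deviations of same-numbered senescent and proliferating libraries correlated at -0.025, 0.001 and -0.039, and the highest value for any pair was 0.033. With the number as a block, 9775 genes were called at 36 h, 395 for the difference between the times and 2 for the inhibitor. Pairs of libraries within a group differed unevenly. Their chi-square per degree of freedom was 1.411 to 1.571 in senescent and 5.364 to 17.93 in proliferating cells at 36 h. It reached 90.513 in proliferating cells at 16 h. Depth limits genes with few counts. A fold against 3 counts or fewer in a group is given as a bound or with an interval that covers counting error only, and a fitted change against 4 to 11 counts, as for IL1A, CXCL3 and TOX, rests on those counts.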

Other observations

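Some lists and abundant genes belong to no group above. Of 11 tested hyaluronan genes 4 rose and 4 fell (median 0.05, -0.09 scaled by library size). HMMR, a hyaluronan-binding spindle protein, went from 7.75 ± 0.213 to 1.11 ± 0.111 CPM, and CEMIP2, a relative of CEMIP, from 101 ± 6.77 to 259 ± 1.4 CPM, opposite to CEMIP. EEF1A1, the elongation factor of translation and one of the genes with most counts, went from 6417 ± 511 to 4324 ± 51.3 CPM (log2 change -0.57 ± 0.10, edgeR adjusted p = 1.3e-05). MT-CO1, a mitochondrial gene of cytochrome oxidase, went from 8987 ± 886 to 12950 ± 165 CPM. CD59, an inhibitor of the complement attack complex, rose from 856 ± 39.7 to 1199 ± 7.88 CPM, and NT5E, a mesenchymal surface marker that makes adenosine, from 341 ± 17.6 to 1085 ± 13.8 CPM.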
